A study of Mus musculus with 2 samples.

Results

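Glucose enters the beta cell through facilitative transporters of the Slc2a family, is trapped as glucose-6-phosphate by hexokinases, and can be released again by glucose-6-phosphatases of the endoplasmic reticulum. The balance of these steps sets how much glucose reaches glycolysis, the process that couples blood glucose to insulin secretion. Transcripts of 9 genes of this entry step are described here: the transporters Slc2a1, Slc2a2, Slc2a3 and Slc2a4, the glucokinase regulator Gckr, the hexokinases Hk1 and Hk2, and the glucose-6-phosphatases G6pc2 and G6pc3. They were chosen by symbol and function, and all 9 were found among the 55487 genes of each deposited table. They do not cover every enzyme that phosphorylates glucose, so their levels give no total for this step.

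RNA was sequenced from sorted islet beta cells of mice aged 2 months whose genotype is given as MytF/F; Myt2F/F; Myt3F/F; RipCre, that is, floxed alleles of all 3 Myt genes, which encode zinc-finger transcription factors (Myt1, Myt1l and St18) with a Cre recombinase driven by the rat insulin promoter. Both libraries carry this genotype and form 1 group of n = 2, the label gives males and females as pooled, and control cells were not analysed here, so no value compares mutant with control cells. Islets were dissociated with trypsin before sorting. Library 2 is labelled a duplicate, with no statement of whether it came from other mice. The p-values below set the difference between these libraries against counting error only. They hold no estimate of the spread between mice or preparations, and part of a difference may be technical.

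Libraries 1 and 2 held 50121771 and 39003197 counted reads, and a count of 0 allows up to 3 reads, or 0.0599 and 0.0769 CPM, the unit of reads scaled to the library total. All 5 beta-cell markers examined (Ins1, Ins2, Iapp, Slc30a8, Ucn3) reached 1 CPM, the level taken as detected, in either library. The cell type is labelled endocrine, and hormone genes of alpha, delta and PP cells were present too. Targeted genes stood at 77.6 and 65.4 CPM (Myt1), 44.5 and 39 CPM (Myt1l), 72.7 and 56.5 CPM (St18); with no control and no value per exon, these do not show whether the floxed exons were lost. The libraries differed in admixed RNA and in sex-linked genes. All 9 acinar markers were higher in library 2, with sums of 109 CPM (library 1) and 542 CPM (library 2). The X-inactivation RNA Xist had 5.01 and 653 CPM, and the Y-linked Ddx3y had 102 and 64.2 CPM. Xist was thus 130-fold higher in library 2 (interval 115 to 148), and Ddx3y was 1.59-fold higher in library 1. The libraries were therefore not alike in sex-linked RNA, and no ratio between them can be separated from this difference. How much of each pool came from either sex was not tested. The part of these marker differences in the results below was not tested either, and each result is therefore given for each library separately.

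Among the members, Slc2a2 was the leading transporter and G6pc2, the islet-specific form, was the leading phosphatase. To show the regulatory sequence next to these levels, the stretch just upstream of the start site is printed for the more and the less abundant gene of the transporter pair Slc2a2 and Slc2a1 and of the phosphatase pair G6pc2 and G6pc3. The sequences are from RefSeq on GRCm38.p6, plus strand, 5′ to 3′, and end before the first base of the gene in both RefSeq and GENCODE M21. They cover chr3:28697653-28697902 for Slc2a2 (250 bases), chr4:119108495-119108710 for Slc2a1 (216 bases), chr2:69210823-69211072 for G6pc2 (250 bases) and chr11:102189449-102189619 for G6pc3 (171 bases). Capitals mark matches, on either strand, to AAGTT, a core that Myt-family zinc fingers are known to recognise, to the TATA box TATAAA, to the GC box with letters GGGCGG and to the E-box with letters CACGTG.
Slc2a2: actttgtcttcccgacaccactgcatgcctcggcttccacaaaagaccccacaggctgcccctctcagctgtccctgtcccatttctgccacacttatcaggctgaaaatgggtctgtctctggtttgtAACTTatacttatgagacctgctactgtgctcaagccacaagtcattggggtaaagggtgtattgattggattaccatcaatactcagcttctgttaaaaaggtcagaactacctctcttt
Slc2a1: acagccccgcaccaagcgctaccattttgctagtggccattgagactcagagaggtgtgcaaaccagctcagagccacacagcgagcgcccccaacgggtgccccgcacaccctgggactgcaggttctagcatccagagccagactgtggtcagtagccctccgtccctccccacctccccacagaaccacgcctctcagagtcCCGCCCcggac
G6pc2: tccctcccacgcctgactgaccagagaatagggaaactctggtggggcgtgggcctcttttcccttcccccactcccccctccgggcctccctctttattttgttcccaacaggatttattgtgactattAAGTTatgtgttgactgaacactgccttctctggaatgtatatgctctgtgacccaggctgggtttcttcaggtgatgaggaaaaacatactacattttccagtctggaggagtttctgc
G6pc3: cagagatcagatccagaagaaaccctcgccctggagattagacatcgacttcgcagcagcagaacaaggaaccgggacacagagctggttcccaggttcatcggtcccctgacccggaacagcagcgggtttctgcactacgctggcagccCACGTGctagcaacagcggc

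Both abundant genes held 1 match to AAGTT, which began 121 bases before the start site in Slc2a2, on the minus strand, and 120 bases before it in G6pc2, on the plus strand. Such a match was common, being present in 35.3% of the 32851 RefSeq promoters over the same 250 bases. The 2 less abundant genes held none in their shorter windows, where 31.9% (216 bases) and 27.5% (171 bases) of promoters had one. Slc2a1 held 1 GC box, found in 27.9% of promoters over that window, and G6pc3 held 1 E-box, found in 3.41%. No TATAAA was found in any of the 4 windows. Those of Slc2a1 and G6pc3 end at 119108710 and 102189619, before the RefSeq start sites at 119108745 and 102189699. The bases in between were not searched. GC content was 47.2% in Slc2a2 and 50% in G6pc2, against 63.9% in Slc2a1 and 59.1% in G6pc3. A match describes letters only and shows neither binding nor its absence.

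Scaled by gene length, in the deposited TPM values, the order by mean was G6pc2, Slc2a2, G6pc3, Slc2a1, Slc2a4, Gckr, Slc2a3, Hk1 and Hk2. From the first to the last the span was 27838-fold and 72323-fold in the 2 libraries. The first 5 places were the same in both libraries, and their ranges over the libraries did not overlap with those of their neighbours. Of the 8 neighbouring pairs, 2 overlapped: Gckr with Slc2a3, and Slc2a3 with Hk1, so the order of Gckr, Slc2a3 and Hk1 was not resolved beyond the spread of the libraries. Only 4 of the 9 genes reached 1 CPM in both libraries: Slc2a1, Slc2a2, G6pc2 and G6pc3. Together the 9 genes took 0.406% of the reads of library 1 and 0.437% of those of library 2, of which G6pc2 alone made up 77.0% and 84.3%.

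**Figure D1:**
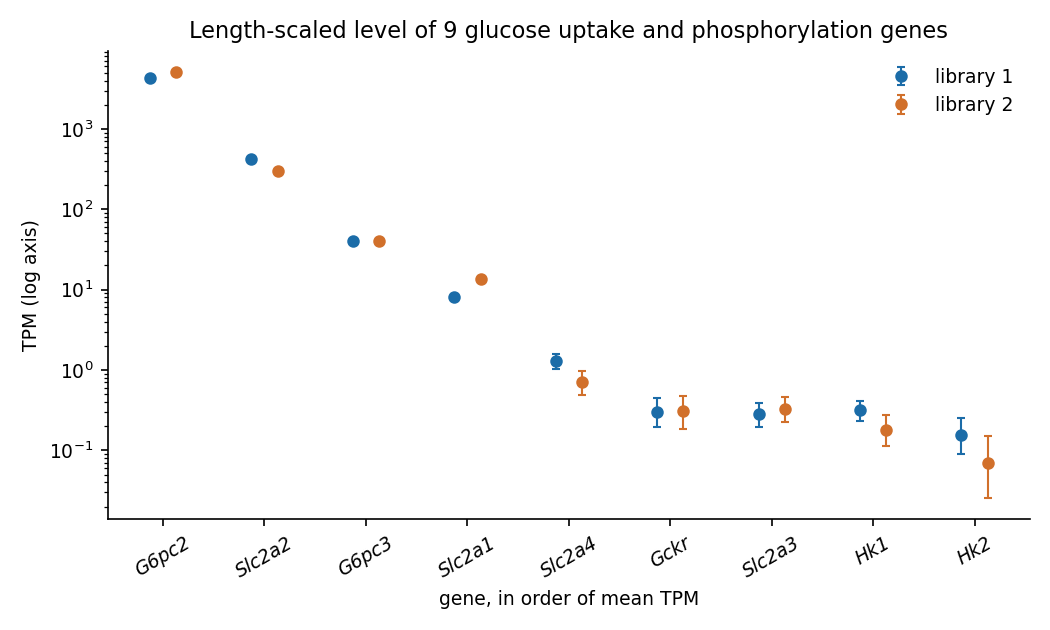
Length-scaled level (TPM, log axis) of each of the 9 genes in library 1 (blue) and library 2 (orange), in order of mean TPM; bars are exact 95% binomial intervals, which cover counting error only. G6pc2, Slc2a2, G6pc3, Slc2a1 and Slc2a4 stand in separate steps, while the intervals of Gckr and Slc2a3 overlap near 0.3 TPM.

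Among the transporters, Slc2a2 was the most abundant. Slc2a2 encodes GLUT2, the low-affinity, high-capacity transporter of rodent beta cells and hepatocytes. It had 44368 reads in library 1 and 24642 in library 2, that is 885 CPM (exact 95% binomial interval 877 to 893) and 632 CPM (624 to 640). The mean was 758 ± 179 CPM (SD, n = 2). Its TPM was 424 and 299, which placed it 128th and 205th among all genes listed. The value of library 1 was the higher, and the counting intervals of the libraries did not overlap. Slc2a2 (ENSMUSG00000027690) occupies positions 28697903 to 28731359 of chromosome 3 (plus strand, GRCm38). GENCODE M21 gives it 11 merged exons.

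Slc2a1 encodes GLUT1, a widely expressed high-affinity transporter, found among other places in brain capillaries. It had 521 and 691 reads, that is 10.4 CPM (9.52 to 11.3) in library 1 and 17.7 CPM (16.4 to 19.1) in library 2, with a mean of 14.1 ± 5.18 CPM (SD, n = 2). Scaled by length this was 8.17 and 13.8 TPM. Here library 2 was the higher, the opposite of Slc2a2, and again the intervals did not overlap. The gene (ENSMUSG00000028645) spans 119108711 to 119137983 on chromosome 4, plus strand, in 12 merged exons. An antisense gene, Gm12868, covers 2.99% of its exon bases, and the strand setting of the counting is not given in the sources used here, so a few of its reads cannot be assigned to one or the other.

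Slc2a4 encodes GLUT4, the transporter that insulin moves to the surface of muscle and fat cells. It had 81 and 35 reads, or 1.62 CPM (1.28 to 2.01) and 0.897 CPM (0.625 to 1.25), and reached 1 CPM in library 1 but not in library 2. Transcripts of Slc2a3, which encodes GLUT3, the neuronal high-affinity transporter, were scarcer per length, with 37 and 34 reads, or 0.738 CPM (0.520 to 1.02) and 0.872 CPM (0.604 to 1.22). Both genes lay above the limit that a count of 0 allows in both libraries. Of adipocyte and muscle markers, 1 of 7 was detected (Acta1), Fabp4 was lower in library 2 (0.758 and 0.205 CPM), 2 were at 0 reads in both libraries (Adipoq, Myh4), and the list summed to 3.39 and 3.03 CPM; their part in the level of Slc2a4 was not tested. Slc2a4 (ENSMUSG00000018566) is on chromosome 11 from 69942539 to 69948188 and Slc2a3 (ENSMUSG00000003153) on chromosome 6 from 122727809 to 122801640, both on the minus strand.

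Within library 1 the length-scaled level of Slc2a2 exceeded that of Slc2a1 by 51.9-fold (95% interval 47.6 to 56.7), and within library 2 by 21.7-fold (20.1 to 23.5). This ratio does not depend on how the libraries are scaled, and it was 2.39 times larger in library 1 (2.13 to 2.68). Over Slc2a4, Slc2a2 stood 331-fold higher (266 to 417) in library 1 and 425-fold (306 to 611) in library 2, and these intervals overlapped. Over Slc2a3 the ratios were 1510-fold (1095 to 2144) and 912-fold (653 to 1318). Of the length-scaled transcripts of the 4 transporters, Slc2a2 made up 97.8% and 95.3%, and Slc2a1 1.88% and 4.39%. In bulk cells, fewer cells of a type and less RNA per cell cannot be told apart, so these shares describe the sorted population.

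**Figure D2:**
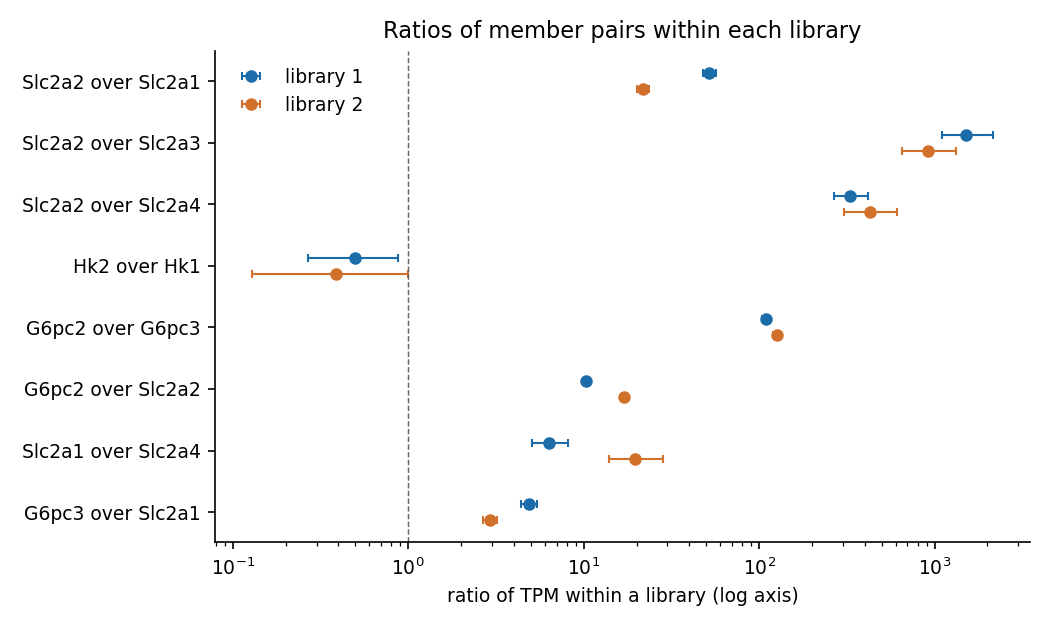
Ratio of TPM between the 2 genes of each pair (log axis) within library 1 (blue) and library 2 (orange), with exact 95% intervals that cover counting error only; the dashed line marks equal levels. The ratio of Slc2a2 to Slc2a1 was 51.9 in the first and 21.7 in the second, with intervals apart, while G6pc2 exceeded G6pc3 by 109-fold and 126-fold.

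Transcripts for the phosphorylation step covered here were low. Hk1 and Hk2 encode hexokinases of high glucose affinity that are inhibited by their product, Hk1 in most tissues and Hk2 mainly in muscle and fat. Hk1 had 49 reads in library 1 and 22 in library 2, that is 0.978 CPM (0.723 to 1.29) and 0.564 CPM (0.353 to 0.854), and Hk2 had 17 and 6 reads, that is 0.339 CPM (0.198 to 0.543) and 0.154 CPM (0.0565 to 0.335). The length-scaled ratio of Hk2 to Hk1 was 0.496 (0.268 to 0.876) in library 1 and 0.390 (0.129 to 0.991) in library 2, so Hk1 was the higher in both, with wide intervals from these few reads. Hk1 (ENSMUSG00000037012) lies on chromosome 10 from 62268855 to 62379908 and Hk2 (ENSMUSG00000000628) on chromosome 6 from 82725025 to 82774454, both on the minus strand. Antisense gene Hk1os covers 1.84% of the exon bases of Hk1.

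Gckr encodes the glucokinase regulator, a protein known from liver that binds and inhibits the enzyme it is named for when glucose is low. Its 24 and 19 reads gave nearly equal values, 0.479 CPM (0.307 to 0.712) in library 1 and 0.487 CPM (0.293 to 0.761) in library 2, under 1 CPM and above the limit of a count of 0. The gene (ENSMUSG00000059434) lies on chromosome 5 from 31297443 to 31327314, plus strand. Scaled by length, Gckr, Slc2a3 and Hk1 each had between 0.180 and 0.328 TPM in either library.

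Of the phosphatases, G6pc2 dominated. G6pc2 encodes the islet-specific catalytic subunit, which returns glucose-6-phosphate to glucose. It had 156509 and 143506 reads, that is 3123 CPM (3107 to 3138) in library 1 and 3679 CPM (3660 to 3698) in library 2. The mean was 3401 ± 394 CPM (SD, n = 2). At 4358 and 5075 TPM it ranked 13th and 11th among all genes. Like Slc2a1, it was higher in library 2, with intervals apart. The gene (ENSMUSG00000005232) occupies positions 69211073 to 69227841 of chromosome 2 (plus strand) in 6 merged exons, and shares no word of 50 bases with transcripts of another gene.

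G6pc3, the catalytic subunit found in most tissues, stood at 32.2 CPM (30.6 to 33.8) in library 1 and 32.9 CPM (31.2 to 34.8) in library 2 from 1614 and 1285 reads, the closest agreement among the 4 detected genes. G6pc2 exceeded it 109-fold (104 to 115) and 126-fold (119 to 133), so that G6pc3 made up 0.906% and 0.788% of the length-scaled phosphatase transcripts. Against the main transporter, G6pc2 was 10.3-fold (10.2 to 10.4) more abundant than Slc2a2 in library 1 and 17.0-fold (16.8 to 17.2) in library 2. G6pc3 exceeded Slc2a1 by 4.88-fold and 2.93-fold. The G6pc3 gene (ENSMUSG00000034793) is on chromosome 11 from 102189620 to 102194081, plus strand.

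Between the libraries, 4 of the 9 genes differed by more than counting error. Each of the 20681 genes with 10 or more reads summed was compared by a binomial test (exact, two-sided) of its reads given both library totals, with Benjamini-Hochberg adjustment over all of them; this test compares the reads of these libraries, not conditions. All 9 members were tested, and 4 had an adjusted p under 0.05, next to 32.4% of all genes: Slc2a1 and G6pc2 were higher in library 2, Slc2a2 and Slc2a4 were lower. With a 2-fold minimum as well, 0 of 9 members were called, next to 4.31% of all genes (1.91% higher and 2.4% lower in library 2). At 1.5-fold, Slc2a1 and Slc2a4 were called, next to 8.05% of all genes, and at an unadjusted p under 0.05, 5 members passed, next to 39.8% of all genes. The members' share was below that of all genes at 2-fold and above it at 1.5-fold, at any fold (44.4%) and unadjusted, and with only 9 members nothing is read from these shares. The other 5 members, with adjusted p between 0.086 and 1.0 by this exact test, were not shown to differ.

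Slc2a1 was 1.70-fold higher in library 2 (95% interval 1.52 to 1.91), a log2 ratio of 0.77, with an adjusted p of 6.11e-19 by the exact binomial test. Among 13955 genes whose mean reached 1 CPM, 2.07% had a higher ratio. For Slc2a2 the log2 ratio was −0.49 (−0.51 to −0.46), 1.40-fold higher in library 1, with an adjusted p too small to be represented, and 6.74% of those genes had a lower ratio. The log2 ratio of G6pc2 was 0.24 (0.23 to 0.25), and 13% of the genes lay above it. The median absolute log2 ratio of these 13955 genes was 0.14, less than the differences in Slc2a1, Slc2a2 and G6pc2.

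The log2 ratio of Slc2a4 was −0.84 (−1.46 to −0.26), 1.80-fold higher in library 1, with an adjusted p of 0.0136 by the same exact test. Hk1 and Hk2 had log2 ratios of −0.78 (−1.59 to −0.04) and −1.07 (−2.77 to 0.27), with adjusted p of 0.086 and 0.209 by the exact test. Slc2a3, Gckr and G6pc3 lay at 0.24, 0.03 and 0.03. In G6pc3 the interval was narrow, from −0.07 to 0.14, whereas in Gckr it ran from −0.92 to 0.95, so a difference of up to nearly 2-fold in either direction was not detectable at this depth.

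**Figure D3:**
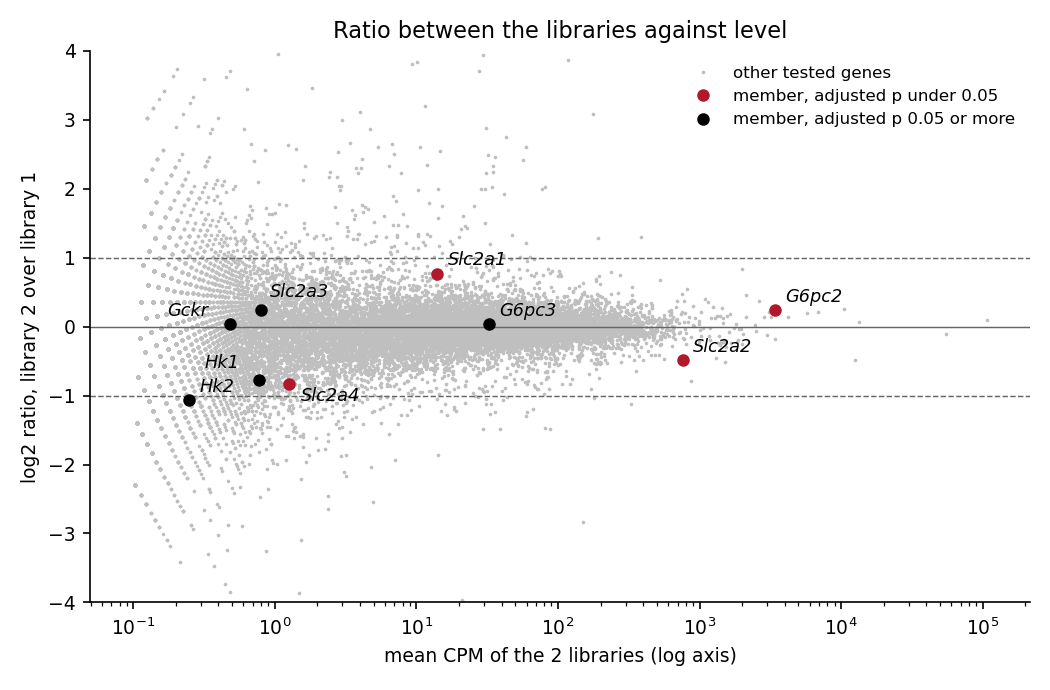
Log2 ratio of library 2 over library 1 against mean CPM (log axis) for the 20681 tested genes (grey) and the 9 members (red where the adjusted p was under 0.05, black otherwise); dashed lines mark 2-fold, and 73 genes lie outside the axis. Slc2a1 at 0.77 and Slc2a2 at −0.49 sit on opposite sides of the cloud, and Hk2, with 17 and 6 reads, is the only member past the 2-fold line.

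Markers of other cells also differed between the libraries, and their part in these differences was not tested. In what follows, higher and lower mean in library 2 at an adjusted p under 0.05 by the exact test. Of all tested genes, 32.4% passed that level in either direction. Endothelial markers (6 of 8 detected) summed to 31.1 and 22.7 CPM, with 4 lower and Kdr higher, at 1.64 and 2.49 CPM. Erythroid markers (0 of 6 detected) summed to 1.34 and 2.67 CPM, with Hbb-bs and Alas2 higher. Ductal markers (6 of 7 detected) summed to 924 and 1240 CPM, mostly from Spp1, with 4 higher and Ambp lower, at 73.9 and 49.6 CPM. Acinar markers (8 of 9 detected) were all higher. Alpha-cell markers (5 of 5 detected) summed to 938 and 718 CPM, with 4 lower and 0 higher. Delta-cell markers (5 of 5 detected) summed to 1660 and 1247 CPM, mostly from Sst, with 3 lower and Lepr higher, at 6.92 and 23.4 CPM. PP-cell markers (3 of 3 detected) summed to 979 and 1215 CPM, with Ppy higher and Pyy lower. Immune markers (2 of 8 detected) summed to 53.2 and 44.6 CPM with 3 lower, mesenchymal markers (5 of 6) to 14.98 and 9.87 CPM with 2 lower, and Schwann-cell markers (3 of 5) to 46.2 and 40.4 CPM with Ngfr lower; none of these 3 lists had a higher gene.

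The other sugar transporters included a second abundant one. Of 15 listed, 9 reached the detection level, and the median over all 15 was 1.92 TPM. The median of all tested genes, 5.64 TPM, is not a like value, because only 12 of the 15 had enough reads to be tested. Slc2a5, the fructose transporter GLUT5, stood close below Slc2a2 with 295 TPM in library 1 and 275 TPM in library 2. Of the length-scaled transcripts of 12 Slc2a genes, Slc2a2 made up 53.0% and 45.5% and Slc2a5 36.9% and 41.9%. Slc50a1, a sugar transporter of the SWEET family, had 144 and 139 TPM. The sodium-coupled Slc5a10 had 107 TPM in library 1 and 46.2 TPM in library 2, a log2 ratio of −1.20 that was called (adjusted p of 3.11e-197 by the exact test), although 16.8% of its exon bases lie over other genes. Slc5a9 was the lowest detected member of this list, at 1.71 and 1.05 TPM. The renal glucose cotransporter Slc5a2 was called higher in library 2 but stayed under 1 CPM, at 0.0399 and 0.410 CPM. That call rests on 2 and 16 reads, in library 1 below the limit that a count of 0 allows. Of the exon bases of Slc5a2, 20.6% lie over another gene. Of 12 tested, 1 was higher and 4 were lower in library 2 at an adjusted p under 0.05, next to 32.4% of all tested genes.

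Genes that share glucose-6-phosphate with these enzymes were mostly detected, 8 of 10, at a median level of 28.9 TPM. The exceptions were the hexokinase genes Hk3 (0.219 and 0.128 CPM) and Hkdc1 (0.200 and 0.0769 CPM), which stood, like Hk1 and Hk2, under 1 CPM. Gpi1, which converts glucose-6-phosphate to fructose-6-phosphate, had 103 TPM in library 1 and 76.1 TPM in library 2. Slc37a4, the carrier that brings glucose-6-phosphate to the phosphatases in the endoplasmic reticulum, had 68.1 and 66.6 TPM, and its relative Slc37a3 had 60.1 and 54.8 TPM. Slc37a2 was the lowest detected, at 1.75 and 0.998 TPM. At an adjusted p under 0.05, 1 gene was higher and 5 were lower in library 2, next to 32.4% of all tested genes. None of the 10 also reached 2-fold.

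All 21 genes of lower glycolysis were detected (median 36.0 TPM), of which 7 were higher and 6 lower in library 2 at an adjusted p under 0.05, next to 32.4% of all tested genes passing in either direction. The pyruvate kinase gene Pkm had 328 and 294 TPM and the aldolase gene Aldoa 227 and 257 TPM, but the count of Pkm is uncertain because 25.8% of its 50-base words are also found elsewhere. Pfkfb1 was lowest, at 1.09 and 1.27 TPM. Past 2-fold stood Pfkp, a phosphofructokinase, at 1.37 and 3.16 TPM (log2 ratio 1.22), and Pfkfb3, which makes its activator, at 15.2 and 7.28 TPM (log2 ratio −1.05).

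All 7 genes of glucose-responsive transcription passed the exact test, 1 higher and 6 lower in library 2, next to 32.4% of all tested genes. Their median log2 ratio was −0.21, next to −0.04 over all tested genes; abundant genes pass this counting test at small ratios. Txnip, which restrains glucose uptake and is induced by glucose, had 1565 TPM in library 1 and 1083 TPM in library 2, although 19.4% of its exon bases lie over another gene. Mlxipl, the carbohydrate-response factor ChREBP, had 251 and 241 TPM, a log2 ratio of −0.04 close to the median of all tested genes, and Arrdc4, a relative of Txnip, had 60.6 and 32.8 TPM. Mlxip was the lowest by the mean of the libraries, at 42.1 and 36.1 TPM. Mlx, the partner of Mlxipl, was the one higher gene, at 37.1 and 42.5 TPM. Apart from Mlx, the genes of this list lay on the same side as Slc2a2, opposite to Slc2a1 and G6pc2, though Mlxipl only slightly. That side was not particular to the list, as 5 beta-cell transcription factors were lower and 2 higher.

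Genes for trafficking and glycosylation of transporters were all detected (8 of 8, median 22.5 TPM). At an adjusted p under 0.05, 1 was higher and 4 were lower in library 2, next to 32.4% of all tested genes. Sort1 led with 84.4 and 83.1 TPM, followed by Tbc1d1 with 47.3 and 50.04 TPM and the insulin-regulated aminopeptidase gene Lnpep with 44.5 and 40.8 TPM. Mgat4a, a glycosyltransferase known to keep GLUT2 at the surface of beta cells, was the lowest at 2.29 and 1.79 TPM. All 7 beta-cell transcription factors, likewise abundant, passed the test, next to 32.4% of all tested genes, with 2 higher and 5 lower in library 2: Mafa had 815 and 989 TPM, Nkx6-1 586 and 628 TPM, Pdx1 316 and 293 TPM, and Foxa2, the lowest, 88.3 and 74.3 TPM.

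Slc2a1, Slc2a3 and Hk2 are known targets of the hypoxia response. Of 11 other genes of that response, 9 were detected. Of the 11, 3 were higher and 4 lower in library 2 at an adjusted p under 0.05, next to 32.4% of all tested genes. The median log2 ratio of the 11 was −0.07. Vegfa had 476 and 447 TPM, P4ha1 38.7 and 43.3 TPM and Hif1a 39.5 and 40.2 TPM, while Ldha, the lowest detected, had 1.63 and 1.31 TPM. Adm was called higher in library 2 while staying under 1 CPM, at 0.180 and 0.641 CPM. The part of this response in the levels of the members was not tested.

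**Figure D4:**
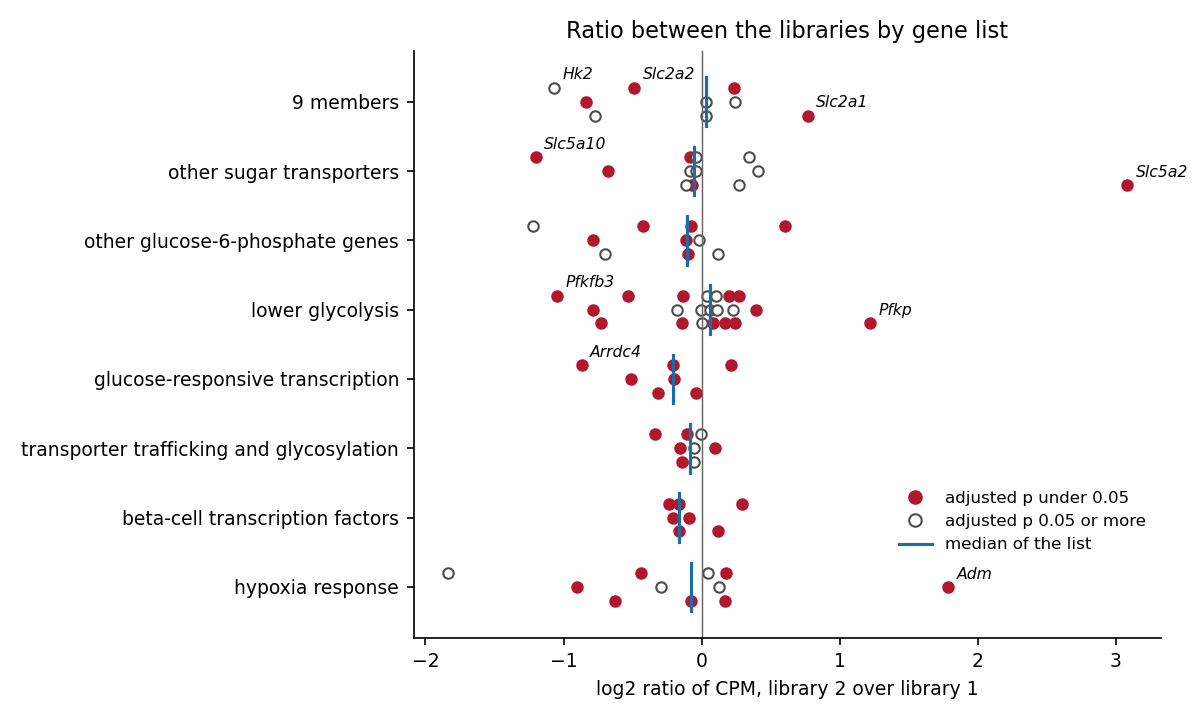
Log2 ratio of library 2 over library 1 for each tested gene, by list (red where the adjusted p was under 0.05, open otherwise); blue lines are the medians of the lists. The 9 members lie from −1.07 to 0.77 around a median of 0.03, and the genes of glucose-responsive transcription have a median of −0.21.

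The genes nearest to 3 of the members in level were found by the distance in log2(TPM + 1) over the 2 libraries, which describes likeness of level only. Nearest to Slc2a2 were H1f2 (445 and 315 TPM, distance 0.10), Hspa1b (393 and 279 TPM, 0.15) and Rps3a1 (379 and 313 TPM, 0.17), of which Hspa1b and Rps3a1 are uncertain, with 62.3% and 71.0% of their 50-base words shared. G6pc2 was nearest to the mitochondrial genes mt-Nd5 (4577 and 4981 TPM, 0.08) and mt-Nd6 (4729 and 5104 TPM, 0.12) and to the hormone gene Ppy (3480 and 4786 TPM, 0.34). Around Slc2a1 stood Gm17334 (8.34 and 13.5 TPM, 0.04), H4c12 (7.93 and 13.2 TPM, 0.07), a histone gene with 71.5% of its words shared, and Il18bp (8.61 and 13.6 TPM, 0.07).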

How the data were processed

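Gene-level values were analysed for 2 RNA-seq libraries of sorted beta cells (1 group). The deposited tables give a raw read count, a TPM value and a CPM value per gene, per the file headers. Upstream tools were STAR 2.7.8a, featureCounts 2.0.2 and cutadapt 2.10, with the build GRCm38.p6, per the submitters' processing notes; for parameters, strand setting and multi-mapping reads, the handling was not given in the sources used here. Gene length as implied by the deposited TPM lay within 1% of the merged exon length of GENCODE M21, scaled to the median gene, for 98.35% of 16229 genes in library 1 and 98.4% of 15318 in library 2 (genes with more than 20 reads).

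Totals were 50121771 and 39003197 counts. Intervals are exact (Clopper-Pearson, 95%); they and the limit of 3 reads cover counting error only. CPM was used to compare a gene between libraries, TPM to compare genes. With 1 group there is no contrast for edgeR's quasi-likelihood test, so an exact two-sided binomial test (scipy 1.17.1) with Benjamini-Hochberg adjustment was run on the 20681 genes with 10 or more reads summed; a call needs an adjusted p under 0.05 and 2-fold, with 0.5 read added for log2 ratios. Alternatives used TMM (edgeR 4.0.16) and DESeq2 1.42.0 size factors. Where a symbol had several identifiers, the one with most reads was kept.

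Members and lists were chosen with earlier results of these data known, and the promoter motifs after the levels were seen. All 9 members were named, with the 3 highest, the lowest detected and up to 5 called genes of each pathway list, and other genes where they complete a small count; 1 gene that the rule names is not reported here. RefSeq promoters matched 7 of the 9 members.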

Additional observations from a re-analysis of the deposited data

How the results depend on the processing

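In 36 of 36 recomputed log2 ratios of single members (TMM, DESeq2 size factors, totals without the 10 genes with most reads, 2 reads added), the direction and the call (adjusted p with the 2-fold minimum) were unchanged; Hk2, not called, went from −1.07 to −0.89 with 2 reads added, inside the 2-fold line. With 0 members called at 2-fold, a minimum of 1.5-fold called 2 and no minimum called 4; for all genes, with 892 calls, these gave 1664 and 6699, and a filter of 50 reads summed gave 531. At 0.5 CPM, 7 members were detected in place of 4. CPM in place of TPM, which drops the length scaling, changed the mean log2 ratio of G6pc2 over Slc2a2 from 3.72 to 2.18. Slc2a2 over Slc2a4 went from 8.55 to 9.28, Hk2 over Hk1 from −1.18 to −1.70 and G6pc2 over G6pc3 from 6.88 to 6.70. Slc2a2 over Slc2a1 went from 5.07 to 5.78 and Slc2a2 over Slc2a3 from 10.2 to 9.9. These last changes were smaller than the SD of the libraries (0.89 and 0.51). With log2(TPM + 1), which shrinks ratios of low genes, Slc2a2 over Slc2a3 was 8.10 in place of 10.20, Slc2a2 over Slc2a4 was 7.50 and Hk2 over Hk1 was −0.16. The place in the order changed for 3 members with CPM and for 2 to 3 members without 1 library, among Gckr, Slc2a3 and Hk1. No paired analysis was possible because both libraries form 1 group. Depth limits Gckr, Slc2a3, Slc2a4, Hk1 and Hk2, each with 81 reads or fewer per library.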

Other observations

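Some genes known to be induced by glucose were lower in library 2, as Slc2a2 was; these were picked after their values were seen, and no test was made of the group. The pyruvate kinase gene Pklr had 53.6 and 32.3 CPM in libraries 1 and 2 (log2 ratio −0.73), Txnip had 1774 and 1242 CPM (−0.51) and Arrdc4 had 88.8 and 48.6 CPM (−0.87). G6pc2, at 3123 and 3679 CPM (0.24), lay on the other side. Of the 21 lower glycolysis genes, which include Pklr, 7 were higher and 6 lower at an adjusted p under 0.05 by the exact test. Of the 7 glucose-responsive transcription genes, 6 were lower, with Mlxipl at only −0.04, and Mlx was higher (0.21). Of the exon bases of Pklr, 22.0% lie over another gene, so its count is uncertain. The cause of these differences was not tested.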
